A study of Mus musculus with 6 samples.

Results

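CCRL2, the atypical receptor that binds the chemoattractant chemerin, was examined here together with its chemerin partners (Cmklr1 and Rarres2) and with 4 chemokine receptors of monocytes and macrophages (Ccr1, Ccr2, Cx3cr1 and Cxcr4). These 7 genes were taken by symbol from the 22377 genes of the count table. In the study, tumors were grown from Lewis lung carcinoma (LLC) cells, a mouse lung carcinoma line, implanted under the skin of young Npm1+/+ and Npm1+/- mice of either sex. CD45+ CD11b+ F4/80+ tumor-associated macrophages (TAMs) were sorted from them for RNA sequencing. The sample labels name 3 libraries wt and 3 libraries ko, the latter with the treatment "knockdown", and they give no genotype, age or tumor model. The libraries are called wt and labelled ko below, corresponding to the only RNA sequencing groups in the study, Npm1+/+ and Npm1+/-. The Npm1+/- allele is carried by all host cells and not by macrophages alone, and the implanted tumor cells do not carry it. A figure legend of the study gives fewer mice per group than there are libraries, so that some libraries of a group may share a mouse, and p-values over libraries would then be too small. The labels also give whole tumor tissue as the material, which differs from the sorted cells of the methods.

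Chemokine receptors are seven-transmembrane receptors that couple to inhibitory G proteins and steer leukocytes along gradients of their ligands. Ccr2 draws classical monocytes out of the bone marrow and into tumors in response to Ccl2 and Ccl7. Ccr1 answers to Ccl3, Ccl5, Ccl6 and Ccl9, Cx3cr1 binds the membrane-anchored ligand Cx3cl1 and is high on non-classical monocytes and resident macrophages, and Cxcr4 binds Cxcl12 and retains cells in bone marrow and stroma. Chemerin, encoded by Rarres2, is secreted as an inactive precursor and signals through Cmklr1, which macrophages and NK cells carry. Ccrl2 also binds chemerin but does not signal through G proteins, and is known to present the ligand to neighboring cells with Cmklr1.

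Total counts ranged from 36550775 to 38147320 per library, and levels are given as CPM, the counts relative to the library total after TMM scaling, which adjusts each library for its RNA composition. CPM compares the same gene between libraries, and FPKM, which also divides by gene length, is used to compare genes with each other. The level of Npm1 was 142, 380 and 381 CPM in wt replicates 1, 2 and 3 and 441, 499 and 343 in replicates 1, 2 and 3 labelled ko, so the targeted transcript was not lower in the libraries labelled ko. Replicate 1 of wt stood apart, at -108 on the first principal component against -4.54 to 52.0 for the other libraries, and values without it are given below for the genes and lists that it moved most. The 13 macrophage markers were detected in each library, and their summed level was 21843 to 26976 CPM in wt and 13138 to 22317 in the libraries labelled ko. Lyz2 and Cd14, with means of 9455 and 5473 CPM over the 6 libraries, held most of that sum. Of the epithelial list, which sums to 35.8 to 138 CPM in wt and 129 to 192 in the libraries labelled ko, Krt8 had 9.9, 117 and 59.1 CPM in wt and 171, 165 and 105 in the replicates labelled ko, Cdh1 had 24.3, 14.1 and 16.6 in wt and 13.7, 9.43 and 18.2 in the replicates labelled ko, and Krt19 and Sftpc had at most 1 count in any library. Summed T cell markers were at 89.9 to 283 CPM in wt and 226 to 400 in the libraries labelled ko, and summed fibroblast markers at 32.7 to 491 and 369 to 715. In each library Il7r was the largest part of the T cell sum. It had 57.6, 141 and 165 CPM in wt and 120, 137 and 131 in the replicates labelled ko (log2 fold change 0.10). Col3a1 held most of the fibroblast sum, at 19, 426 and 245 CPM in wt and 604, 474 and 308 in the replicates labelled ko.

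Ccrl2 was the most abundant of the 7 genes per length in both groups, and Rarres2 was close to absent. In wt libraries the mean FPKM was 491 ± 138 for Ccrl2, 167 ± 12.9 for Ccr1, 119 ± 15.7 for Ccr2, 109 ± 26.7 for Cxcr4, 29.9 ± 2.97 for Cmklr1 and 13.4 ± 4.88 for Cx3cr1 (SD, n = 3). In this order the ranges of Ccr2 and Cxcr4 overlapped, and all other neighbors were separated in each wt library. In the libraries labelled ko, Ccrl2 was again first at 296 ± 50.2 FPKM (SD, n = 3), the ranges of Ccr1, Cxcr4 and Ccr2 ran into each other, and Cmklr1 and Cx3cr1 followed without overlap. Counts were high enough that counting error was minor, at 0.712% of the lowest Ccrl2 count and 3.86% of the lowest Cx3cr1 count, so the spread between libraries set the precision.

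**Figure D1:**
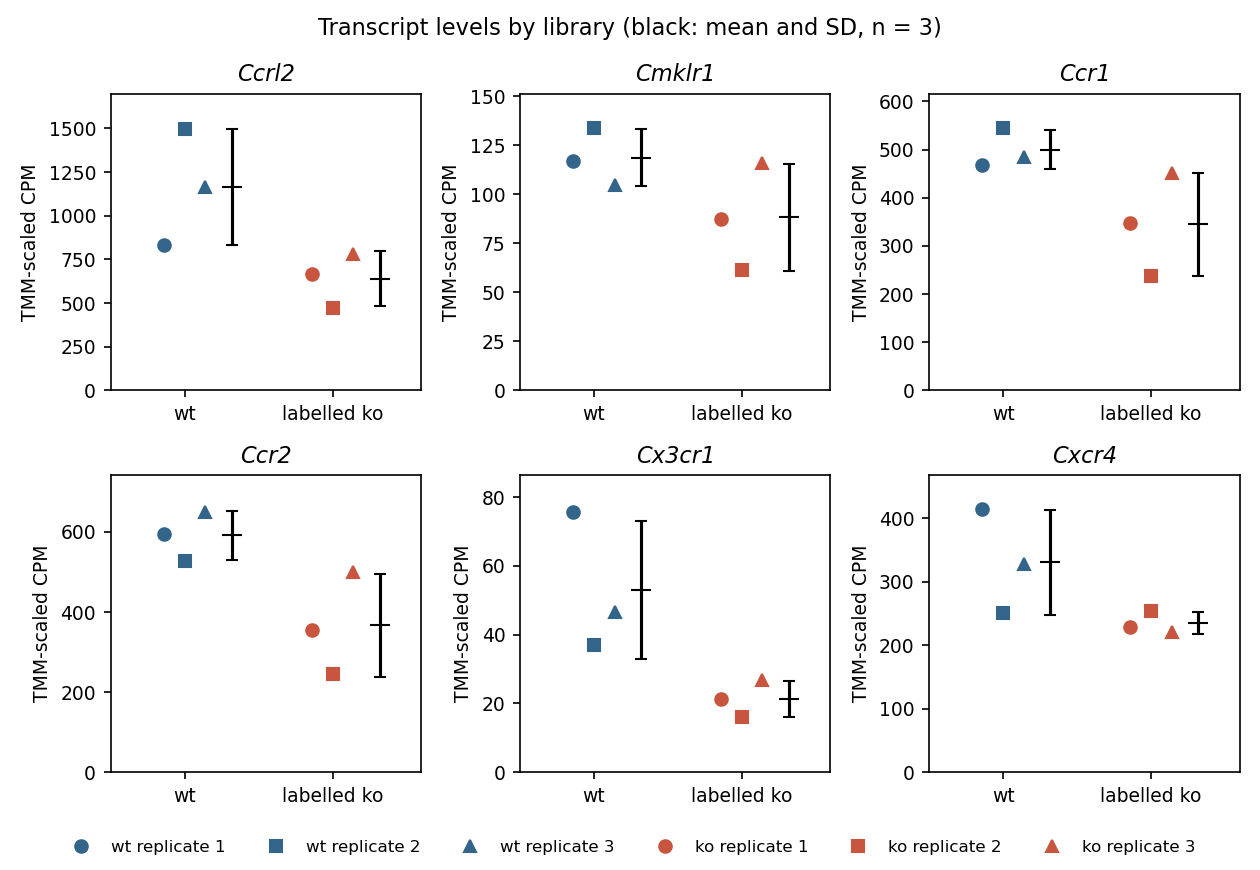
Level of the 6 genes with sufficient counts in each library (vertical axis, TMM-scaled CPM, starting at 0), with wt libraries in blue and libraries labelled ko in red, and mean and SD in black. Each library labelled ko lies below each wt library for Ccrl2, Ccr1, Ccr2 and Cx3cr1, whereas the groups overlap for Cmklr1 and Cxcr4.

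No annotated gene overlaps Ccrl2 (NCBI Gene 54199; GRCm38 chromosome 9, 111054486 to 111057519, minus strand). Its level was 831, 1494 and 1162 CPM in wt replicates 1, 2 and 3, and 665, 471 and 783 in replicates 1, 2 and 3 labelled ko. The lowest wt library and the highest library labelled ko were close to each other, and the wt libraries themselves spanned 1.80-fold. The level in the libraries labelled ko was 0.55 times that in wt (95% CI 0.359 to 0.843; the intervals here are per gene and not adjusted), which did not pass the test (adjusted p = 0.328, edgeR's quasi-likelihood test, Benjamini-Hochberg over 13884 genes). Without wt replicate 1, its log2 fold change moved from -0.86 to -1.06, and without wt replicate 2 it was -0.64.

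The study examined STAT3 binding at the Ccrl2 promoter, at a site with the pentamer GCGTG, and the promoter windows of the genes are therefore described here. RefSeq windows on GRCm38.p6, from 250 bases before to 50 bases after each start, were available for 6 of the 7 genes (not Rarres2) and were searched on both strands. The STAT consensus TTCNNNGAA was in none of the windows of the 6 genes and in 8.3% of 32851 windows overall. GCGTG or its reverse complement was in 2 of 3 start windows of Ccrl2, in the single window of Cmklr1, Ccr1, Cx3cr1 and Cxcr4 and not in that of Ccr2, against 32.4% of all windows. The match of Ccrl2 is shown with those of the other chromosome 9 receptors that had one, 5′ to 3′ on the strand of the gene, with the pentamer or its reverse complement in capitals.
Ccrl2, chr9:111057239-111057268, minus strand: cactggaagcagGCGTGggttagtgtcctt
Ccr1, chr9:123968700-123968729, minus strand: gccctacatttaCACGCccacacacatcaa
Cx3cr1, chr9:120068247-120068276, minus strand: tctggtggagtctGCGTGagactgggtgag
These matches describe the letters of the windows only. The transcript of Stat3 itself was at 505, 366 and 351 CPM in wt and 290, 296 and 316 in the replicates labelled ko, with a ratio of 0.739 (95% CI 0.566 to 0.963, adjusted p = 0.328, edgeR's quasi-likelihood test), and Stat3 overlaps Stat5a in the annotation.

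The chemerin partners differed widely in abundance. Cmklr1 (NCBI Gene 14747, chromosome 5, 113612354 to 113650426, minus strand), the signaling receptor for chemerin, had 117, 134 and 105 CPM in wt replicates 1, 2 and 3 and 87.5, 61.3 and 116 in the replicates labelled ko. The groups overlapped, because replicate 3 labelled ko stood at the level of the wt libraries. The ratio between groups was 0.745 (95% CI 0.515 to 1.08, adjusted p = 0.356, edgeR's quasi-likelihood test). Its log2 fold change of -0.42 moved to -0.68 without replicate 3 labelled ko and to -0.23 without replicate 2 labelled ko, so that these libraries decided its size. Gm15736, an antisense gene, overlaps Cmklr1, and their reads cannot be told apart, since the use of strand in counting is not given.

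Rarres2, the gene for chemerin itself (NCBI Gene 71660, chromosome 6, 48569696 to 48572789, minus strand), had 3, 4 and 2 counts in wt replicates 1, 2 and 3 and 5, 4 and 0 in the replicates labelled ko. A count of 0 allows up to 3 counts, which covers counting error only, so all 6 libraries were near the limit of detection and the gene was too low to be tested. Lrrc61 overlaps it on the opposite strand. Cmklr2, a further chemerin receptor also known as Gpr1, had 1 count in 1 wt library and 0 in the others. Of the 4 chemerin genes 2 were tested, both with a lower estimate (median log2 fold change -0.64). These libraries held transcripts for the chemerin receptors Ccrl2 and Cmklr1, with the chemerin transcript itself at or near the detection limit. The secreted protein, which other cells can supply, was not measured here.

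Cx3cr1 (NCBI Gene 13051), the fractalkine receptor, had the largest estimated difference of the 6 genes tested. It lies on chromosome 9 from 119901616 to 120069879 on the minus strand, a gene model that overlaps 9 other annotated genes, so that its counts are less certain than those of Ccrl2. Its level was 75.5, 37 and 46.7 CPM in wt replicates 1, 2 and 3 and 21.2, 16 and 26.7 in the replicates labelled ko. No library labelled ko reached the lowest wt library, and wt replicate 1 was far above the others. The ratio between groups was 0.401 (95% CI 0.248 to 0.649, adjusted p = 0.328, edgeR's quasi-likelihood test), and by p-value Cx3cr1 ranked 48 of the 13884 genes tested, against 410 for Ccrl2. Without wt replicate 1 its log2 fold change moved from -1.32 to -0.98. DESeq2 on the same 6 libraries called Cx3cr1, with an adjusted p of 0.0253, as the only one of the 7 genes.

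Ccr1 and Ccr2 lie near each other on chromosome 9, and both were lower in each library labelled ko. Ccr2 (NCBI Gene 12772, 124101950 to 124113557, plus strand), the receptor for Ccl2, had 596, 527 and 651 CPM in wt replicates 1, 2 and 3 and 354, 245 and 501 in the replicates labelled ko. The ratio was 0.62 (95% CI 0.413 to 0.929, adjusted p = 0.328, edgeR's quasi-likelihood test). Replicate 3 labelled ko was the closest to wt for this gene, and without it the log2 fold change moved from -0.69 to -0.99, whereas without replicate 2 labelled ko it was -0.48. Ccr1 (NCBI Gene 12768, 123962124 to 123968692, minus strand), the receptor for Ccl3 and Ccl9, had 468, 545 and 485 CPM in wt and 347, 237 and 451 in the replicates labelled ko. Its ratio was 0.691 (95% CI 0.479 to 0.997, adjusted p = 0.328, edgeR's quasi-likelihood test), and without replicate 2 labelled ko its log2 fold change moved from -0.53 to -0.33.

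Cxcr4 (NCBI Gene 12767, chromosome 1, 128588199 to 128592293, minus strand), the receptor for Cxcl12, behaved less evenly. It had 415, 250 and 327 CPM in wt replicates 1, 2 and 3 and 229, 254 and 220 in the replicates labelled ko. The groups overlapped at wt replicate 2, and wt replicate 1 held the highest value. The ratio was 0.708 (95% CI 0.521 to 0.963, adjusted p = 0.328, edgeR's quasi-likelihood test). Without wt replicate 1 the log2 fold change moved from -0.50 to -0.30.

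Across the 7 genes, edgeR's quasi-likelihood test called 0 at an adjusted p-value under 0.05, as it did among all genes tested (0%). All 6 genes tested had a lower estimate in the libraries labelled ko, with a median log2 fold change of -0.61 against 0.02 for all genes tested, and a lower estimate was found for 47.9% of genes. At an unadjusted p-value under 0.05 the count was 5 of the 6, and of all genes tested 15.2% were at that level, 8.31% lower and 6.9% higher. In 4 of the 6 the groups did not overlap with ko below wt, against 12.6% of all genes tested (13.3% had ko above wt, and 25.9% did not overlap in either direction). A two-sided exact permutation test over libraries gave p = 0.1 for each of these 4 genes, the smallest that 3 against 3 allow, and 0.2 for Cmklr1 and Cxcr4. The 6 genes were chosen with earlier results of these data known, and they share the cells and libraries, so these counts describe them and are not independent evidence.

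Among the markers of cell types, all 13 macrophage markers had a lower estimate in the libraries labelled ko, with a median log2 fold change of -0.51 (-0.48 without wt replicate 1). In 7 of the 13 each library labelled ko was below each wt library, as for 12.6% of all genes tested. Among the 11 monocyte markers 10 had a lower estimate (median -0.67, and -0.41 without wt replicate 1), including Ly6c2 (named after its values were seen) of classical monocytes at 462, 307 and 283 CPM in wt and 241, 177 and 209 in the replicates labelled ko. In contrast, all 9 T cell markers tested and all 10 fibroblast markers had a higher estimate, with medians of 1.26 and 1.35. Without wt replicate 1 these medians were 0.90 and 0.92, with 8 of 9 and 9 of 10 estimates higher. The T cell median was 0.68 without replicate 2 labelled ko and 2.15 without wt replicate 3. None of these genes passed the adjusted test. The part of these markers in the differences of Ccrl2 and the monocyte receptors was not tested in the model, and in bulk RNA fewer cells of a type and less RNA per cell cannot be told apart.

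With the libraries scaled to the macrophage list instead, an alternative chosen after the data were seen, the median of all genes moved to 0.54. The log2 fold change was then -0.40 for Ccrl2, -0.85 for Cx3cr1, -0.25 for Ccr2 and -0.09 for Ccr1, and it turned to 0.02 for Cmklr1 and 0.05 for Cxcr4. This scaling moves all genes by about the same amount. The order of the 6 was that of the first fit, except that Cmklr1 and Cxcr4 changed places (-0.42 and -0.50 in the first fit). The adjusted p-values of Cx3cr1 and Ccrl2 were 0.118 and 0.201 in edgeR's quasi-likelihood test.

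**Figure D2:**
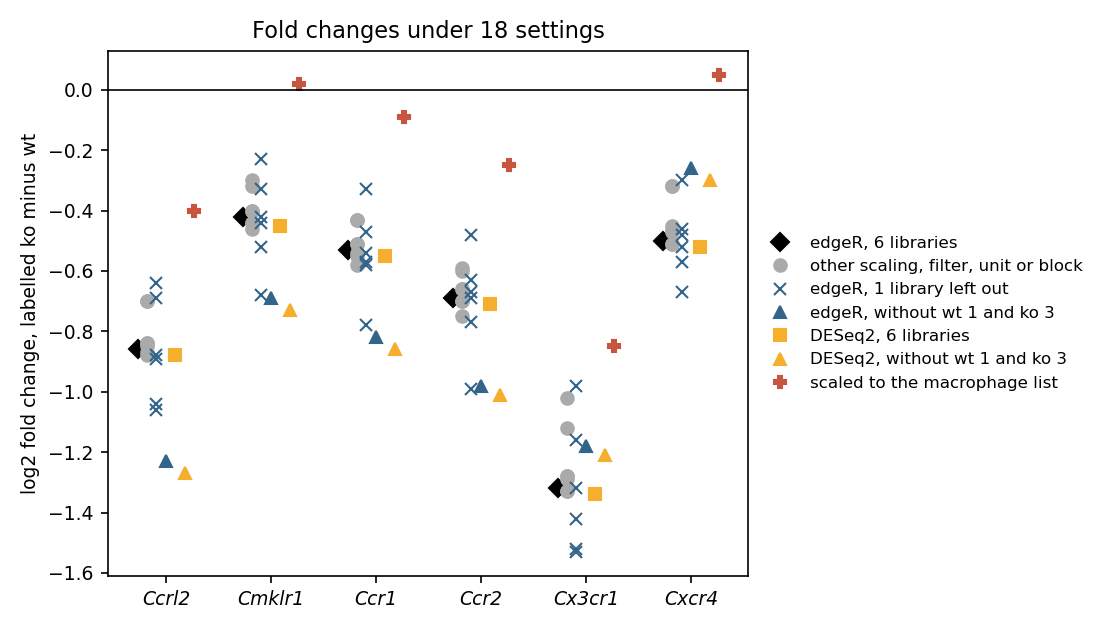
log2 fold change (vertical axis, labelled ko minus wt) of the 6 genes tested, with 1 point for each of 18 settings, marked by kind. Ccrl2, Ccr1, Ccr2 and Cx3cr1 stay below 0 in each setting, and only scaling to the macrophage list lifts Cmklr1 and Cxcr4 above 0, to 0.02 and 0.05.

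To compare Ccrl2 with the other genes without any scaling between libraries, its FPKM was divided by that of each of the others in the same library. The ratio of Ccrl2 to Ccr1 was 2.24, 3.45 and 3.02 in wt replicates 1, 2 and 3 and 2.41, 2.50 and 2.18 in the replicates labelled ko. The ratio to Cmklr1 was 11.9, 18.7 and 18.4 in wt and 12.7, 12.9 and 11.3 in the replicates labelled ko. In both cases wt replicates 2 and 3 were higher than all libraries labelled ko, and wt replicate 1 fell among them. The difference in mean log2 ratio was -0.27 for Ccr1 and -0.39 for Cmklr1 (two-sided exact permutation p = 0.3 for each, n = 3 per group). For Ccr2 it was -0.11 (exact permutation p = 0.9), for Cxcr4 -0.38 (exact permutation p = 0.5), and for Cx3cr1 0.43 (exact permutation p = 0.7). The groups overlapped in all 5 ratios, and the adjusted p was 0.75 or above for each over these 5 exact permutation tests. With 3 libraries per group no p under 0.1 is possible, so that no ratio could have passed the threshold and these tests do not show that Ccrl2 moved with the other receptors.

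**Figure D3:**
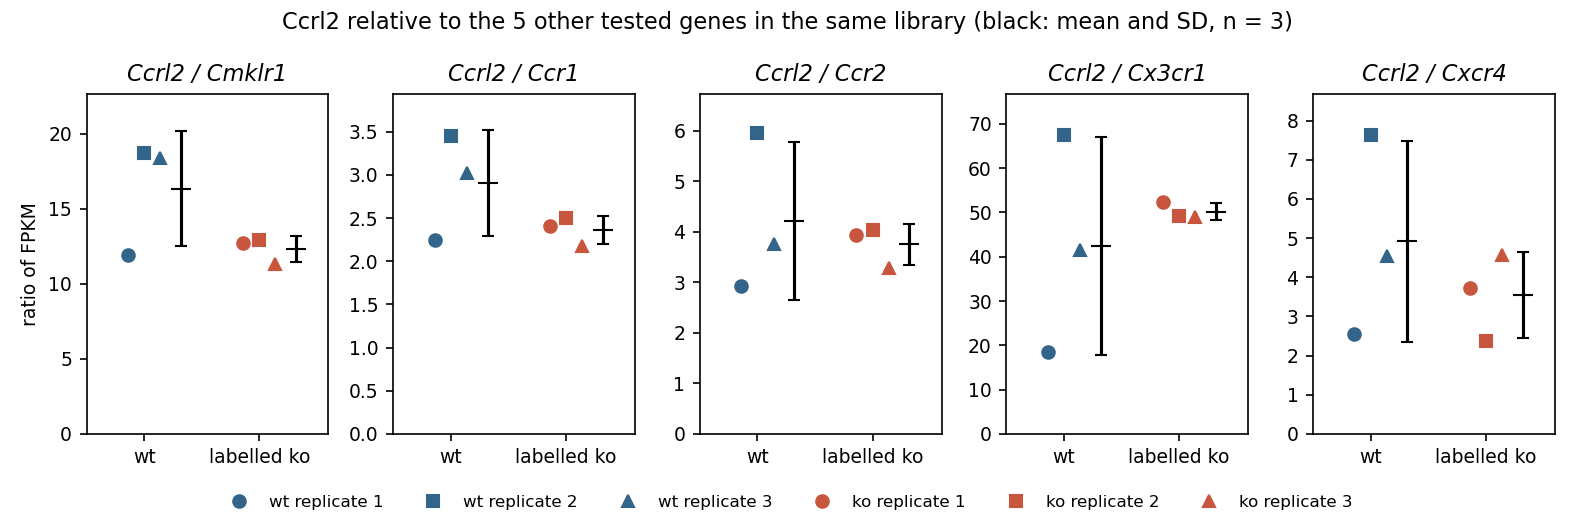
Ratio of Ccrl2 FPKM to the FPKM of each other gene tested, within the same library (vertical axes, starting at 0, 1 panel per gene), with wt in blue, labelled ko in red, and mean and SD in black. In each panel the libraries labelled ko lie within or next to the spread of the wt libraries, among which wt replicate 1 has the lowest ratio to Cmklr1, Ccr1, Ccr2, Cx3cr1 and Cxcr4.

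Ratios to general markers, chosen after the values were seen, varied in their estimates, and none of them could pass the threshold either. Against Csf1r, the growth factor receptor of macrophages, Ccrl2 differed by -0.10 in mean log2 ratio between groups (exact permutation p = 0.9). Against Adgre1, which encodes F4/80, the difference was -0.35 (exact permutation p = 0.5). Against Itgam, another gene of the macrophage list, the difference was -0.32 (exact permutation p = 0.4), and the groups overlapped. Against Ptprc, which encodes the pan-leukocyte antigen CD45, it was -0.78, with ratios of 2.27, 4.01 and 2.18 in wt and 1.73, 1.33 and 1.72 in the replicates labelled ko, which did not overlap (exact permutation p = 0.1, the smallest possible).

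The levels of these genes moved together over the 6 libraries to different degrees. Pearson's r of log2 CPM was 0.979 between Cmklr1 and Ccr1, 0.941 between Ccr1 and Ccr2 and 0.912 between Ccrl2 and Ccr1, whereas it was 0.616 between Ccrl2 and Cx3cr1 and 0.205 between Ccrl2 and Cxcr4 (n = 6, as a description over libraries that include the group difference). Among 8091 genes with a mean of at least 10 CPM, Ccr1 was number 101 in likeness to Ccrl2 and Cmklr1 number 295. The 5 genes most like Ccrl2 were Clec2d (r = 0.986), D16Ertd472e (0.985), Nek6 (0.983), Rab32 (0.983) and Slc25a51 (0.980). Clec2d, a C-type lectin gene, had 46.1, 60.0 and 52.2 CPM in wt and 35.5, 29.4 and 42.2 in the replicates labelled ko, the same order of libraries as for Ccrl2.

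Across the family, 19 of 24 chemokine receptors passed the filter on low counts, and edgeR called 0 of them. Their median log2 fold change was 0.03, close to that of all genes, because abundant and rare receptors differed in direction. Of the 9 receptors with a mean of at least 10 CPM, a limit set after the values were seen, 7 had a lower estimate in the libraries labelled ko (median -0.53). Among them was Cxcr2, the main receptor of neutrophils. Cxcr2 had 58.9, 49.9 and 54.1 CPM in wt and 34.9, 14.2 and 34.2 in the replicates labelled ko (ratio 0.512, 95% CI 0.306 to 0.854), and all 10 neutrophil markers tested also had a lower estimate. Its groups did not overlap, and its adjusted p was 0.328 in edgeR's quasi-likelihood test. Ccr7, the lymph node homing receptor of dendritic cells and T cells, lay at a ratio of 1.02 (95% CI 0.73 to 1.43).

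Of the 10 tested receptors below that limit, 8 had a higher estimate in the libraries labelled ko (median 0.93). Ccr8, a receptor of regulatory T cells, had 1.21, 1.35 and 4.76 CPM in wt and 6.26, 10.0 and 5.69 in the replicates labelled ko. Cxcr3, a receptor of activated T cells, had 1.29, 1.89 and 3.26 CPM in wt and 3.43, 10.1 and 2.08 in the replicates labelled ko. Replicate 2 labelled ko was the highest for both, and it also had the highest summed T cell markers, at 400 CPM. The other replicates labelled ko had 229 and 226 CPM of these markers, within the range of the wt libraries (89.9, 181 and 283), so that the groups overlapped. Il7r was the largest part of each of these sums. The adjusted p-values were 0.328 and 0.34 in edgeR's quasi-likelihood test, and the part of T cell RNA in these values was not tested.

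**Figure D4:**
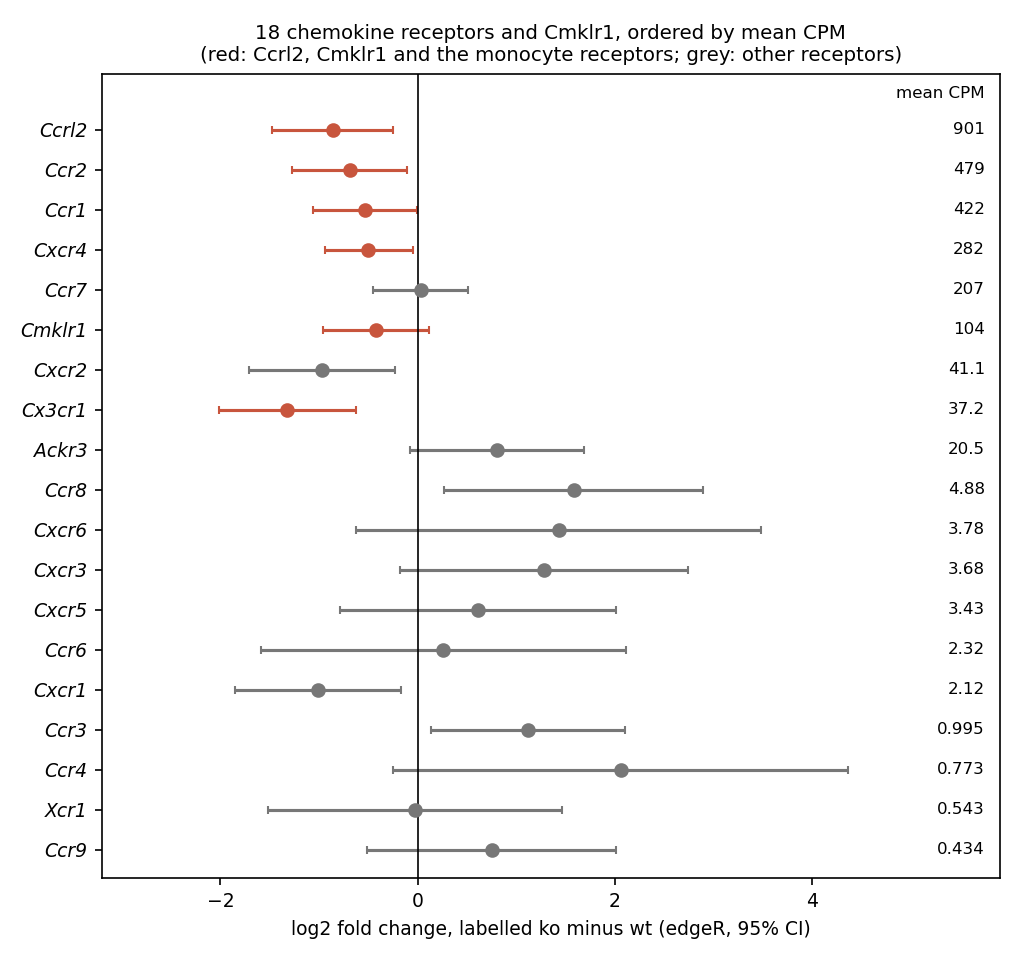
log2 fold change (horizontal axis, labelled ko minus wt, edgeR, with 95% CI not adjusted for multiple genes) of 18 of the 19 tested chemokine receptors and of Cmklr1, ordered by mean CPM, which is printed at the right. The receptors at the top of the plot, except Ccr7 and Ackr3, lie below 0, and most of those at the bottom lie above 0 with wide intervals.

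Ccrl2 made up a large share of the chemokine receptor transcripts in these cells. Per length, it held 36.2%, 54.5% and 45.0% of the summed FPKM of the 24 receptors in wt replicates 1, 2 and 3 and 40.0%, 34.9% and 38.7% in the replicates labelled ko. The share overlapped between groups, since wt replicate 1 lay within the range of the libraries labelled ko. The summed FPKM of the 24 receptors was 952, 1138 and 1129 in wt and 776, 687 and 871 in the replicates labelled ko. Without Ccrl2 it was 608, 518 and 621 in wt and 465, 447 and 534 in the replicates labelled ko. In this unit replicate 3 labelled ko slightly exceeded wt replicate 2. FPKM is not TMM-scaled, and the TMM factors of these libraries were 0.9693 and 0.9334, so their order depends on the scaling.

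**Figure D5:**
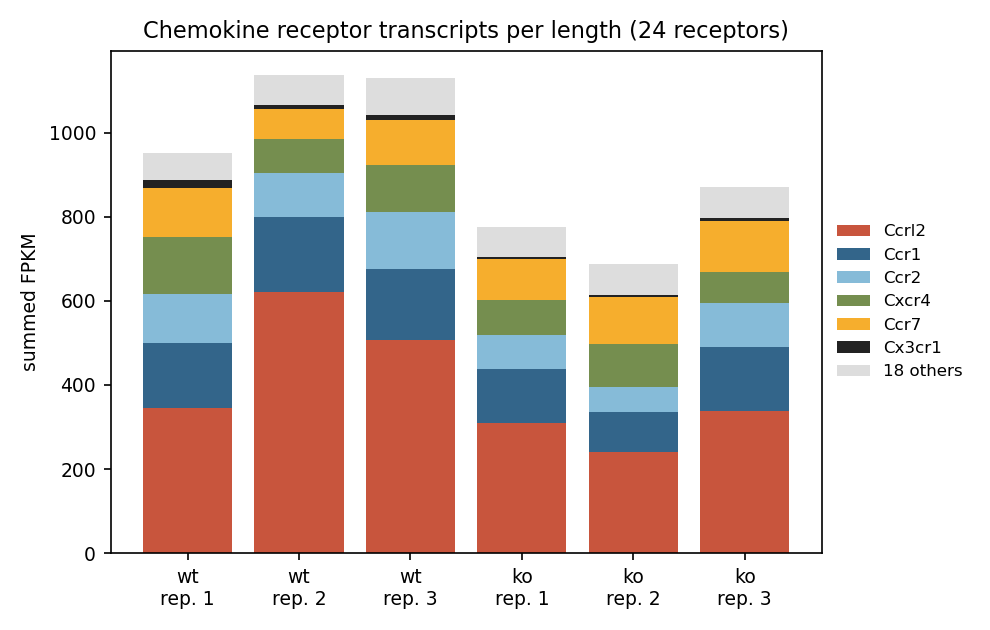
Summed FPKM of the 24 chemokine receptors in each library (vertical axis, starting at 0), stacked by gene with 18 other receptors combined in light grey. Ccrl2 (red) is the largest part of each column, at 34.9% to 54.5%, and the columns of the libraries labelled ko are lower than those of wt.

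The ligands of these receptors had estimates in both directions. Of 13 ligands, 11 were tested, 0 were called by edgeR, 6 had a higher and 5 a lower estimate, and the median log2 fold change was 0.04. Without wt replicate 1 it was -0.19, with 9 of the 11 estimates lower. At an unadjusted p-value under 0.05 there were also 0 with all 6 libraries. Ccl2, the ligand of Ccr2, had 682, 1415 and 1002 CPM in wt and 1008, 916 and 1252 in the replicates labelled ko (ratio 1.03, 95% CI 0.665 to 1.58). Ccl3, a ligand of Ccr1, had a ratio of 1.09 (95% CI 0.735 to 1.63), and the abundant ligands Ccl6 and Ccl9 had 0.851 and 0.832, with intervals that included 1. Cx3cl1, the ligand of Cx3cr1, was low at 5.09 to 5.69 CPM in wt and 6.4 to 8.55 in the libraries labelled ko, which did not overlap (adjusted p = 0.334, edgeR's quasi-likelihood test). Cxcl12, the ligand of Cxcr4, had 1, 4 and 0 counts in wt and 8, 10 and 9 in the replicates labelled ko and was too low to be tested.

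The list of genes that couple chemokine receptors to their signal, or switch them off, had 12 genes tested, of which edgeR called 0. The estimate was lower for 10 of the 12 (47.9% of all genes), with a median of -0.31 (-0.14 without wt replicate 1), and 3 were lower at an unadjusted p-value under 0.05 (8.31% of all genes). Those 3 were Arrb1 and Arrb2, which encode the arrestins that internalize the receptors, and Grk2, which encodes a kinase that phosphorylates them. Arrb1 had 216, 174 and 189 CPM in wt and 114, 91.7 and 153 in the replicates labelled ko (ratio 0.619, 95% CI 0.449 to 0.852, adjusted p = 0.328, edgeR's quasi-likelihood test). Gnai2, the main inhibitory G protein subunit of leukocytes, had a ratio of 0.748 (95% CI 0.55 to 1.02), and Gnai3 had 1.16 (95% CI 0.923 to 1.46). All 8 other chemoattractant and growth factor receptors on the list had a lower estimate (median -0.51). Among them, Ltb4r1, the leukotriene B4 receptor, had 161, 159 and 130 CPM in wt and 88.4, 69.1 and 125 in the replicates labelled ko. Csf1r had 1612, 1061 and 1042 CPM in wt and 732, 547 and 938 in the replicates labelled ko, at a ratio of 0.597 (95% CI 0.396 to 0.899).

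Leaving out wt replicate 1 and replicate 3 labelled ko together widened the differences of 4 genes. The log2 fold change from edgeR was then -1.23 for Ccrl2, -0.98 for Ccr2, -0.82 for Ccr1 and -0.69 for Cmklr1, with adjusted p-values from 0.101 to 0.125, whereas it was -1.18 for Cx3cr1 and -0.26 for Cxcr4. DESeq2 on these 4 libraries called 5 of the 7 genes at an adjusted p-value under 0.05 (Ccrl2, Cmklr1, Ccr1, Ccr2 and Cx3cr1, but not Cxcr4), beside 10.1% of all genes, 5.91% in that direction. DESeq2 on all 6 libraries called only Cx3cr1 of the 7, beside 0.263% of all genes, 0.168% in that direction. edgeR called 0 genes in either case, so the calls depended on the test as well as on the libraries. Replicate 3 labelled ko was the highest of its group for Ccrl2, Cmklr1, Ccr1 and Ccr2. Replicate 1 of wt was the lowest of its group for Ccrl2 and Ccr1. The wider differences therefore follow in part from which libraries were left out, a choice made with earlier results known. The calls without these libraries are not separate evidence.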

How the data were processed

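RNA sequencing of 6 libraries was analysed, 3 wt and 3 labelled ko, grouped by their titles. The deposited gene counts are whole numbers without normalization; the authors also gave FPKM values, which the deposited numbers show to be the same counts divided by 1 length per gene and the library total. According to the methods, cDNA came from sorted macrophages (SMARTer Ultra Low Input) with paired-end reads; the labels describe tumor tissue, TRIzol and a small RNA library instead. The submitters' processing notes name mm10; aligner, counter and annotation are not given in the sources used here, nor is the test behind the study's differential expression.

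Counts were compared with edgeR 4.0.16 in R 4.3.3 (filterByExpr, TMM, glmQLFit, glmQLFTest, Benjamini-Hochberg over the 13884 genes tested, threshold 0.05). The standard error is the size of the log2 fold change over the square root of F, and 95% intervals use the t quantile at the fitted degrees of freedom. log2 CPM used a prior count of 2. Alternatives used DESeq2 1.42.0, limma 3.58.1 on log2 of FPKM plus 1 or 0.1, other scalings, other filters, a block for the replicate number, and left-out libraries. Ratios within libraries were compared by exact permutation. The main edgeR fit, DESeq2, limma (on log2 of CPM plus 1) and edgeR with the replicate block were run on simulated data, and the other alternatives were not. Coordinates are those of GENCODE M21 on GRCm38, matched by symbol. The members and gene lists, and the joint omission of wt replicate 1 and ko replicate 3, were chosen with earlier results of these data known. The genes named were the 7 members, Npm1, Stat3, genes of the chemokine receptor, ligand, coupling and chemoattractant receptor lists with the highest level or smallest p, and the 5 genes most like Ccrl2. Among the cell type lists, the NK cell (median log2 fold change 0.99), B cell (0.00045), dendritic cell (-0.03), epithelial (0.66) and endothelial (0.18) lists had no gene past the adjusted test. The labels do not say whether each library is a separate mouse, and a legend of the study gives fewer mice than libraries per group, so p-values measure the spread between these libraries only. List medians without single libraries were added after seeing the data. Some genes that the counts include are not reported here by name. Genes of the cell type lists with values (Ly6c2, Krt8, Cdh1, Krt19, Sftpc, Csf1r, Adgre1, Itgam, Ptprc, Il7r, Col3a1, Lyz2, Cd14) were picked after their values were seen.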

Additional observations from a re-analysis of the deposited data

How the results depend on the processing

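Over the 6 libraries, edgeR called 0 genes and 0 of the 7 members, with 2112 genes at an unadjusted p under 0.05, and both counts stayed 0 in each edgeR and limma alternative, including each left-out library (0 to 0). DESeq2 called 36 genes and 1 member, and DESeq2 without wt replicate 1 and ko replicate 3 called 1266 genes and 5 members, with Ccrl2 at -1.27 (adjusted p = 1.56e-06). That omission, chosen with earlier results known, removed the wt library with the lowest Ccrl2 (831 CPM). It also removed the library labelled ko with the highest (783 CPM). Its p-values reflect that choice in part and are not separate evidence. The cause of the difference between the tests was not tested. Leaving out 1 library at a time gave Ccrl2 log2 fold changes in edgeR of -1.06 to -0.64. The median of the chemokine receptor list then ranged from -0.33 to 0.36, and the difference in log2 ratio of Ccrl2 to Cmklr1 ranged from -0.60 to -0.28, to Ccr1 from -0.45 to -0.14, to Ccr2 from -0.34 to 0.17, to Cx3cr1 from -0.08 to 0.86 and to Cxcr4 from -0.78 to 0.0048. Without wt replicate 1 and ko replicate 3 the ratio to Cx3cr1 was also reversed, to -0.06, and that to Cxcr4 was -0.99. TMM-scaled CPM in place of FPKM left the 5 differences in ratio as they were. That outcome was fixed in advance, because gene length and library scaling cancel in these differences, so it is not a check.

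The chemokine receptor list had a median of 0.03, of -0.46 with at least 10 counts in every library (12251 genes tested), and of 0.61 when scaled to macrophage markers, an alternative added after seeing the data, where the median of all genes was 0.54. That scaling turned Cmklr1 to 0.02 and Cxcr4 to 0.05. The median of all genes lay between 0.0047 and 0.09 elsewhere, except 0.16 with limma on log2 FPKM plus 0.1. The deviations of libraries with the same replicate number correlated at -0.241, 0.0605 and -0.337 for numbers 1, 2 and 3. These values do not show a pairing, and with 3 libraries per group they cannot exclude one. With the replicate block, edgeR called 0 genes, with 1606 at an unadjusted p under 0.05, Ccrl2 was at -0.85 and the list median at 0.05.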

Other observations

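The nearest tested neighbors of Ccrl2 on chromosome 9 differed in direction. Ltf, the gene for lactoferrin of neutrophil granules, lies 11719 bp away and had a log2 fold change of -1.49 (standard error 0.63, adjusted p = 0.328, edgeR's quasi-likelihood test) at a mean of 4.03 CPM. Lrrfip2, 60073 bp away on the other side and at a mean of 128 CPM, had a log2 fold change of 0.22 (standard error 0.10, adjusted p = 0.331). Epm2aip1, further along on that side, had 0.39. Of the tested chemokine receptors between Ccrl2 and Ccr2, Ccr4, Ccr8, Ccr9, Cxcr6 and Ccr3 had higher estimates (2.06, 1.58, 0.75, 1.43 and 1.12), and Cx3cr1, Xcr1 and Ccr1 had lower ones (-1.32, -0.03 and -0.53). None of these genes passed the adjusted test, and these genes were chosen after the values were seen.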
